A study of Mus musculus with 3 samples.

Results

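Neutrophils among the sorted lavage cells were 2690 of 42888 cells, and they were unevenly spread over the 3 libraries: 74 of 17792 cells after GW5074, 125 of 11642 cells in the Clec7a knockout and 2491 of 13454 cells in wild-type mice given vehicle. A cell counted as a neutrophil when S100a8 and S100a9 together made up at least 1.5% of its transcripts, when it held at least 1 transcript over 7 neutrophil genes (Csf3r, Retnlg, Cxcr2, Stfa2l1, Mmp9, Hdc and Il1r2), when the lysozyme gene Lyz2, high in monocytes and macrophages, made up under 0.5% of its transcripts, and when it held no transcript of the monocyte gene Vcan. Levels of these 11 genes therefore chose the cells and are given only as a description. All mice had received bleomycin, a drug that injures the lung and leaves fibrosis, through the airway, and their airspaces were washed out on day 14. The 3 groups were wild-type mice treated with GW5074, a small-molecule inhibitor of RAF kinase, Clec7a knockout mice given the solvent DMSO, and wild-type mice given DMSO. The fluid of all mice of a group was pooled, cells carrying CD11b or CD11c were sorted, and each pool gave 1 single-cell RNA library. With 1 library per group there is no replicate check of any difference between groups. No p-value is given, and every interval is a 95% interval for counting error only, which does not cover the spread between mice or between preparations.

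Neutrophils are short-lived phagocytes that leave the bone marrow with preformed granules, so the messages of the granule proteins fade as the cells mature and the messages of secreted cytokines and chemokines appear once they enter inflamed tissue. S100a8 and S100a9 encode calprotectin, the calcium- and zinc-binding complex that fills neutrophil cytosol, and Csf3r and Cxcr2 encode the receptors for the growth factor G-CSF and for the chemokines that draw neutrophils into the airspace. Clec7a encodes Dectin-1, a receptor for fungal beta-glucan on myeloid cells, which signals through the kinase Syk and, by another branch, through RAF-1.

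The neutrophil share of the kept cells was 0.416% (exact interval 0.327 to 0.522%) after GW5074, 1.07% (0.895 to 1.28%) in the knockout and 18.5% (17.9 to 19.2%) in wild-type mice given DMSO. The share was 44.5-fold lower (35.3 to 56.9) after GW5074 and 17.2-fold lower (14.4 to 20.8) in the knockout than in the wild-type DMSO library. These are shares of a sorted mixture from pooled fluid. They do not give the number of neutrophils in a lung, and a change in the other sorted cells would move them too. The cells had few transcripts: the median was 590.5 transcripts (unique molecular identifiers, UMIs) per neutrophil after GW5074, 602 in the knockout and 665 in wild-type DMSO, against 2282, 2957 and 2977 UMIs in the other cells of the same libraries. No deposited barcode held fewer than 500 UMIs, so neutrophils below that depth were not analysed here, and 82.4%, 89.6% and 80.0% of the neutrophils in the same order lay under 1000 UMIs.

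**Figure D1:**
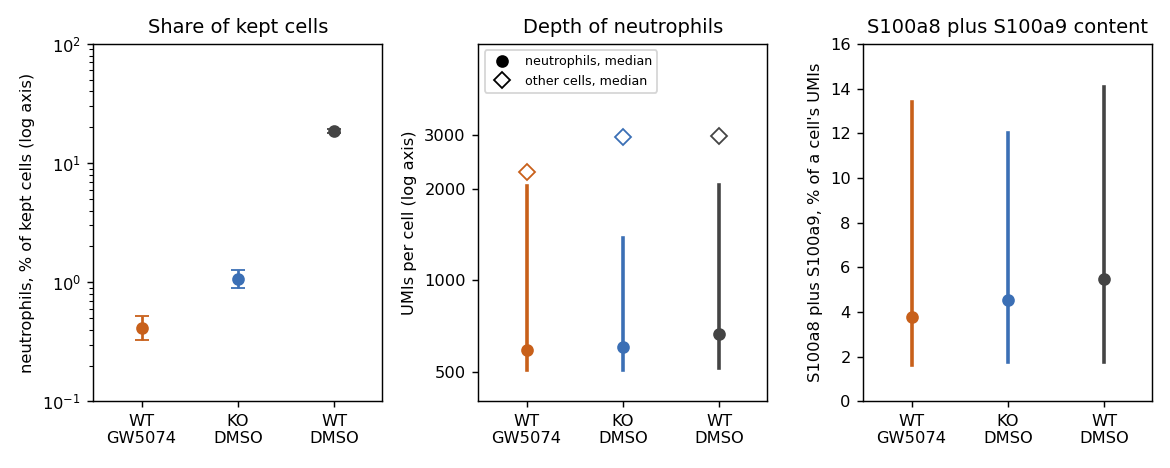
Left, neutrophils as a percent of kept cells in each library on a log axis, with exact 95% intervals (0.416%, 1.07% and 18.5%). Middle, UMIs per neutrophil as the median with the range from the 5th to the 95th percentile, with a diamond at the median of the other cells; right, the percent of UMIs from S100a8 and S100a9 in the same form (medians 3.77%, 4.54% and 5.46%). The share differs between the libraries far more than depth or the calprotectin share of the cells.

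The lysozyme ceiling removed different fractions of the candidates. Of cells past the calprotectin threshold and with a neutrophil transcript, 34 were dropped after GW5074 (31.2%), 29 in the knockout (18.6%) and 247 in wild-type DMSO (8.71%). The share stood 5.16 to 5.78 log2 units lower after GW5074 and 4.0 to 4.30 log2 units lower in the knockout over the 9 other thresholds and filters tried. Cells just inside the calprotectin threshold (1.5 to 2%) numbered 15, 16 and 207 in the order GW5074, knockout and wild-type DMSO. Cells just outside it (1 to 1.5%) that met the other conditions numbered 27, 22 and 233. The antigen-presentation gene Cd74 stood at 2500, 3930 and 2925 CPM, UMIs scaled to a common total per library, just inside, against 6784, 4996 and 3619 CPM just outside, so Cd74 was higher just outside in all 3 libraries. The macrophage genes summed for the same cells were nearly equal after GW5074 (1448 CPM just inside and 1442 CPM just outside) and in the knockout (1928 and 1918 CPM). In wild-type DMSO they were higher just inside, at 831 CPM, against 573 CPM just outside. The libraries shared 119 cell barcodes between GW5074 and the knockout, 154 between GW5074 and wild-type DMSO and 80 between the knockout and wild-type DMSO, and 0 of these were neutrophils in both libraries of the pair.

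The label neutrophil was set against markers of 10 other cell types or mixtures, with levels as CPM over all neutrophil UMIs of a library. Each UMI stands for 1 captured transcript end, so levels were not divided by gene length. The 6 neutrophil markers, all of them used by the rule, summed to 48076, 55128 and 58530 CPM in the order GW5074, knockout and wild-type DMSO, against 2309 CPM in the other wild-type DMSO cells. Eosinophil markers reached 238, 234 and 275 CPM, mostly from Cd101, which neutrophils also express, and the eosinophil granule genes Epx, Prg2 and Prg3 were at 0 in every library. T cell markers summed to 85.1, 22.3 and 46.2 CPM, and basophil and mast cell markers to 0, 22.3 and 0.449 CPM. The 16 markers of monocyte-derived macrophages summed to 4920, 3651 and 3402 CPM, against 16393 CPM in the other wild-type DMSO cells, with Pf4 at 0 after GW5074 and both Mmp12 and Pf4 at 0 in the knockout. The 11 dendritic cell markers summed to 4511, 5795 and 3012 CPM, against 10671 CPM in the other wild-type DMSO cells. The dendritic cell genes Clec9a and Cd209a were at 0 after GW5074 and Flt3 and Zbtb46 were at 0 in the knockout. The other genes of that list had UMIs, such as Flt3 and Zbtb46 with 2 each after GW5074 and Clec9a with 2 in the knockout. A gene at 0 allows up to 51.1 CPM after GW5074 and 33.5 CPM in the knockout. The zeros here and of Pf4 and Mmp12 therefore do not show absence. The macrophage and dendritic cell sums were both higher after GW5074 and in the knockout than in wild-type DMSO. The rule itself limits the monocyte genes Lyz2 and Vcan. The other 6 monocyte markers summed to 664, 190 and 300 CPM, against 1473 CPM in the other wild-type DMSO cells. The 12 alveolar macrophage markers summed to 749, 849 and 6267 CPM, of which Chil3 alone gave 5916 CPM in wild-type DMSO. Without Chil3 the other 11 summed to 579, 514 and 352 CPM. B cell markers summed to 323, 480 and 292 CPM, against 129 CPM in the other wild-type DMSO cells, so they were higher in the neutrophils. In wild-type DMSO neutrophils this RNA lay in few cells, such as Ighm with 256 UMIs in 84 cells and Cd79a with 93 in 41. Its source was not tested. NK cell markers summed to 17.0, 0 and 12.6 CPM and those of epithelium and red cells to 68.1, 22.3 and 66.0 CPM. The gene comparisons below were repeated over the neutrophils without any UMI of the macrophage genes C1qa, C1qb, C1qc, Apoe, Marco and Mrc1. Over those cells the log2 ratio was -5.65 for Chil3 after GW5074 and -4.30 in the knockout, -3.10 and -3.04 for Klhl6, 3.0 for Isg15 after GW5074, and 1.47 for Ccl3 and 2.81 for Ccl4 in the knockout.

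Ly6g, the gene of the antibody epitope used to sort mouse neutrophils and a gene singled out here after its values were seen, had 1, 0 and 3 UMIs in the neutrophils of the 3 libraries in the same order. The protein was not measured.

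The regulatory sequence of the calprotectin genes is shown because they carry the definition of the cells. Each stretch covers 250 bases before to 50 bases after the RefSeq gene start (GRCm38.p6), read on the gene's own strand, at chr3:90668821-90669120 (plus) for S100a8 and chr3:90695672-90695971 (minus) for S100a9. Capitals mark a match to GAGGAAGT, the core recognised by the myeloid factor PU.1, or to TTGCNNAA, the core of the C/EBP factors that drive granulocyte genes, searched on both strands.
S100a8: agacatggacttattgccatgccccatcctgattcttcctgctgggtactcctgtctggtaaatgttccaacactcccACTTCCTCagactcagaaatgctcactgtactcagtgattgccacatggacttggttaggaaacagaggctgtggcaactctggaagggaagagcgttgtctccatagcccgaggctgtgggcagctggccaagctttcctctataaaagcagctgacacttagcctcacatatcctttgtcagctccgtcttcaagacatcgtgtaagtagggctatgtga
S100a9: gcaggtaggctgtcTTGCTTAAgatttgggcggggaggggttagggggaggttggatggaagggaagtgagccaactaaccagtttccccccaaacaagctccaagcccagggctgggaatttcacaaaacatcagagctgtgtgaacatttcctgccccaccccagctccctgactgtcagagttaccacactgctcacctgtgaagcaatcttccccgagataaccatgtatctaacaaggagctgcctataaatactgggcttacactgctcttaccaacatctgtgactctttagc
The S100a8 stretch held 1 PU.1 match, which lies on the opposite strand and starts 172 bases before the gene start, and no C/EBP match. The S100a9 stretch held 1 C/EBP match, 236 bases before the start, and no PU.1 match. Of 32851 promoter stretches of the same length, 3.20% held the PU.1 letters and 10.8% the C/EBP letters. The matches describe letters and do not show binding. Transcripts of the 2 genes varied together from cell to cell: after thinning every cell to 500 UMIs, the correlation of their square-root counts was 0.72 over 2491 wild-type DMSO neutrophils, which share a library.

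The transcriptome of the 2491 wild-type DMSO neutrophils was led by calprotectin, with S100a8 at 34185 and S100a9 at 21456 CPM. The nuclear RNA Malat1 (15107 CPM), the actin-binding peptide gene Tmsb4x (12278 CPM) and the ferritin heavy chain Fth1 (7886 CPM) followed. Chil3, which encodes the chitinase-like protein Ym1 made by alveolar macrophages and by neutrophils late in their marrow development, stood at 5916 CPM and was found in 87.4% of the cells. Srgn, the proteoglycan core that packs granule contents, stood at 4094 CPM, 6.51-fold its level in the other wild-type DMSO cells. Il1r2, the decoy receptor for interleukin-1 and one of the genes that chose the cells, stood at 2007 CPM. The cytokine gene Il1b stood at 1612 CPM, 8.77-fold the other cells, and Klhl6, an adaptor of ubiquitin ligases, at 1428 CPM, 9.24-fold.

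Outside the genes of the rule, the gap to the other wild-type DMSO cells was widest for 2 stefins among genes of at least 200 CPM. Stfa1 was 30.9-fold and Cstdc4 29.5-fold above the other cells, both members of the mouse stefin cluster of cysteine protease inhibitors. Lcn2, which encodes the iron-siderophore-binding granule protein lipocalin-2, was 19.9-fold above them at 623 against 31.4 CPM, and Cd177, a neutrophil surface protein, was 18.7-fold above them. Egln3, an oxygen-sensing prolyl hydroxylase induced by hypoxia, was 19.8-fold, the BCL-2 family gene Bcl2l15 17.2-fold and the macrophage growth factor gene Csf1 16.3-fold above. These gaps follow from how the cells were chosen and are not tests. The 8 genes of the primary granules, which are made early in the marrow, summed to 306, 458 and 314 CPM in GW5074, knockout and wild-type DMSO neutrophils. Rab44, a large GTPase of granules, gave 209 CPM and the protease-activating cathepsin gene Ctsc 92.9 CPM of the wild-type DMSO sum. The enzyme and bactericidal protein genes Mpo, Elane, Ctsg and Bpi were at 0 UMIs in the neutrophils of all 3 libraries, which in wild-type DMSO allows a level of up to 1.35 CPM. The marrow-stage genes Camp, Ngp and Ltf stood at 2.24, 60.1 and 76.7 CPM in wild-type DMSO neutrophils.

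Stefin messages lay in few cells, as did those of some other genes. Among 931 genes of at least 200 CPM in the thinned wild-type DMSO neutrophils, the median ratio of variance to mean was 1.08, where 1 is expected of counting alone. Retnlg, the resistin-like gene of the rule, reached 17.2, and the top 1% of cells held 71.4% of its UMIs. Outside the rule, Cstdc4 (4.85) and Stfa1 (3.70) had the highest ratios. The top 10% of cells held 87.7% of the Cstdc4 UMIs, against 23.5% for S100a8, but this share depends on how many cells hold the gene. Cstdc4 was found in 14.8% of the thinned cells. For Ccl6 and Ccl3, found in 12.6% and 10.7%, the top 10% of cells held 85.5% and 95.9%. Wfdc17 (3.55), S100a6 (3.46), Fth1 (3.08), Malat1 (2.97), Cxcl2 (2.76) and Chil3 (2.76) came next. Cstdc4 was found in 42.7% of the cells with a Stfa2l1 UMI, against 7.70% of those without, and in 47.0% of the cells with a Stfa1 UMI, against 13% of those without.

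The stefin genes lie next to each other on chromosome 16, and the promoters of Stfa2l1, at chr16:36156561-36156860, and Cstdc4, at chr16:36183962-36184261, both on the plus strand, are shown because their messages were found together. Capitals mark their longest shared run, of 25 bases, which starts 89 and 83 bases before the gene starts.
Stfa2l1: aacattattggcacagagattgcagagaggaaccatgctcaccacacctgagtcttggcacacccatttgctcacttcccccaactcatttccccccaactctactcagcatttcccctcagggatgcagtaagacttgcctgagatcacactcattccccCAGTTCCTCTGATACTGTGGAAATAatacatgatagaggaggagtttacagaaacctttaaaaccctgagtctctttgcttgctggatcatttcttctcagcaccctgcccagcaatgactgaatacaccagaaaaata
Cstdc4: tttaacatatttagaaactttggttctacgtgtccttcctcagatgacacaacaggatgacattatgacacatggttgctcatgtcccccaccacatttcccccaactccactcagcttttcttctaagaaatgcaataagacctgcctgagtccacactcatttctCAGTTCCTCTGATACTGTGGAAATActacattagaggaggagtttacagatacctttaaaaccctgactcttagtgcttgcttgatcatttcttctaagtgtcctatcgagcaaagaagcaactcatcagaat
Aligned over their length, the 2 stretches were 76.5% identical. The Stfa1 promoter was 82.0% identical to that of Stfa2l1 and 79.9% to that of Cstdc4. The last 200 bases of the transcripts, which these 3′ tags read, were 73% identical between Stfa2l1 and Cstdc4 with a longest shared run of 12 bases, and 79% between Cstdc4 and Stfa1 with a run of 30. How the counting treated reads that match several of these similar ends was not checked, so the levels of single stefins are uncertain.

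Chil3 was also uneven. In thinned wild-type DMSO neutrophils 18.1% of cells had no Chil3 UMI, where a Poisson distribution with the same mean of 3.37 UMIs gives 3.43%. The unthinned cells were set in 3 ranges, 315 cells with 0, 477 with 1 or 2 and 1699 with 3 or more Chil3 UMIs, whose median depths were 627, 619 and 687 UMIs; 220 cells lay next to the lower cut with exactly 1 UMI. Klhl6 stood at 823 CPM (712 to 947) in the cells with none, 1542 CPM with 1 or 2 and 1491 CPM with 3 or more, and Lcn2 at 293, 619 and 673 CPM. Prnp (71.0, 206 and 232 CPM), Klf9 (125, 354 and 315 CPM) and Ptpn22 (259, 586 and 535 CPM) had the same form. The chemokine gene Ccl4 ran the other way, at 443 CPM (363 to 536) in cells without Chil3, 69.7 CPM with 1 or 2 UMIs and 22.7 CPM (16 to 31.3) with 3 or more, and Ccl3, Isg15, Slfn4 and Il1b did likewise. S100a8 differed little, at 30399, 32691 and 35069 CPM.

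**Figure D2:**
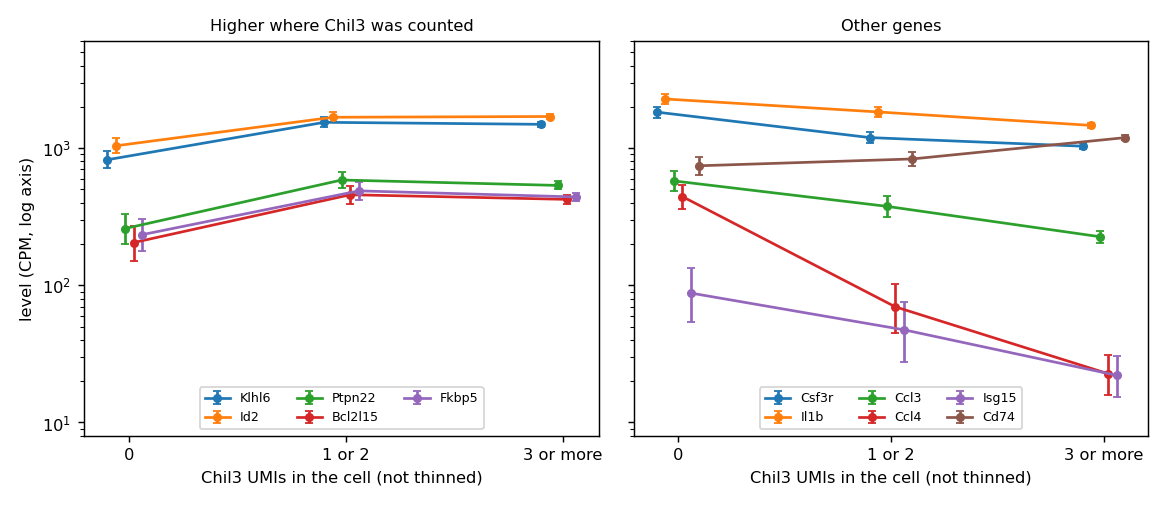
Levels of selected genes in CPM on a log axis in wild-type DMSO neutrophils with 0, 1 or 2, and 3 or more Chil3 UMIs (315, 477 and 1699 cells), with exact 95% Poisson intervals. Klhl6, Id2, Ptpn22, Bcl2l15 and Fkbp5 are lowest in cells without Chil3, and Ccl4 is highest there (443 CPM against 22.7 CPM).

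Depth went with composition as well. Over wild-type DMSO neutrophils of 500 to 600 UMIs (802 cells) Chil3 stood at 7220 CPM, Il1b at 1931 CPM and Cd74 at 248 CPM. Over the 130 cells of 2000 UMIs or more, Chil3 stood at 2690 CPM, Il1b at 875 CPM and Cd74 at 3793 CPM, and their median calprotectin share was 2.25%. Such deep cells numbered 4, 3 and 130 in GW5074, knockout and wild-type DMSO. No doublet caller was run, and the cells under 2000 UMIs served as an alternative.

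Clec7a, the gene deleted in the knockout (chromosome 6, 129461591 to 129472779, minus strand), had 26 UMIs in GW5074 neutrophils, 2 in knockout neutrophils and 758 in wild-type DMSO neutrophils. Its level was 443 CPM (289 to 649), 22.3 CPM (2.70 to 80.7) and 340 CPM (316 to 365) in that order. The knockout level was thus 3.93 log2 units under wild-type DMSO, with a range of -4.42 to -3.31 over the alternatives, while the GW5074 level was 0.38 log2 units above it and was not called. The share of neutrophils with a Clec7a UMI was 32.4%, 1.6% and 23.2%, and after thinning to 500 UMIs 21.6%, 1.6% and 16.2%. Cells gated as T cells, which should lack Dectin-1, held Clec7a UMIs in 11.5%, 0% and 10.6% of cells at median depths of 847, 1168 and 1481 UMIs, with levels of 151, 0 and 86.6 CPM. The neutrophil levels in the wild-type libraries were thus above those of T cell-gated cells, used here as a measure of free RNA. That measure does not bound macrophage RNA for every gene. In wild-type DMSO Apoe stood at 658 CPM in neutrophils and 160 CPM in T cell-gated cells, and Spp1 at 515 and 488 CPM. After GW5074 Apoe stood at 681 and 675 CPM and Spp1 at 936 and 524 CPM. The source of the Clec7a RNA in neutrophils was not tested. The knockout had 10.6 CPM in its other cells, against 426 CPM in the other wild-type DMSO cells. Which exons were deleted is not stated, so a 3′ tag can also remain from a shortened transcript.

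In the GW5074 comparison 1172 genes had at least 200 CPM in neutrophils of either library and at least 20 UMIs over both. A gene was called when it differed at least 1.5-fold with an exact interval that excluded no difference. By this rule 131 genes (11.2%) were higher and 109 (9.3%) lower than in wild-type DMSO neutrophils. In the knockout comparison 1130 genes were measured by the same minimum, and 216 (19.1%) were higher and 150 (13.3%) lower. These shares over all compared genes are the background for each list count below. The median log2 ratio over all these genes was 0.10 for GW5074 and 0.09 for the knockout. A gene with 200 CPM in 1 of the 2 libraries alone entered through the library where it is higher, so counts and medians over a list's compared genes are descriptions and support no direction for the list. Both comparisons use the same wild-type DMSO neutrophils, so a shared direction can come from that library alone, and the values are given side by side. The intervals treat UMIs as independent, although several can come from 1 cell.

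Chil3 had the lowest ratio of the genes with more than 3 UMIs in each library, in both comparisons. It had 170 CPM (81.6 to 313) in GW5074 neutrophils, 335 CPM (226 to 478) in knockout neutrophils and 5916 CPM in wild-type DMSO neutrophils, which is 34.7-fold lower (18.9 to 72.5) after GW5074 and 17.7-fold lower (12.4 to 26.2) in the knockout. It was found in 8.11%, 16.8% and 87.4% of neutrophils, and in 5.41%, 9.6% and 81.9% after thinning. T cell-gated cells had 167, 56.3 and 352 CPM of Chil3, so the GW5074 neutrophils stood at the level of free RNA. The other cells of the 3 libraries had 1535, 1810 and 1571 CPM, so a gap of this kind was not seen outside the neutrophils. The GW5074 value rests on 10 UMIs, and over neutrophils under 2000 UMIs the log2 ratio was -6.37, against -5.12 over all. Chil3 is also an alveolar macrophage marker, and the sums of the other markers of that cell type are given above.

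Lcn2 and Cd177 were the secondary granule genes besides Chil3 that were called lower in both comparisons, and each passed the minimum through wild-type DMSO alone. Of 13 genes measured, Chil3 included, 6 could be compared after GW5074, with 3 lower and 0 higher and a median log2 ratio of -1.12, and 7 in the knockout, with 4 lower and 1 higher and a median of -0.66. Of all compared genes 11.2% were higher and 9.3% lower after GW5074, and 19.1% higher and 13.3% lower in the knockout. Lcn2 had 136, 134 and 623 CPM in GW5074, knockout and wild-type DMSO, 4.58-fold lower (2.32 to 10.6) and 4.65-fold lower (2.65 to 9.02). Its level in the other cells was 0.573, 0.604 and 31.4 CPM and in T cell-gated cells 0, 0 and 15.8 CPM. The wild-type DMSO library thus carried more Lcn2 outside the chosen cells too. S100a8 was also highest there, at 235, 252 and 1388 CPM in the other cells and 178, 123 and 888 CPM in T cell-gated cells. Whether this RNA was free or came from neutrophils that the rule left out was not tested. Cd177 had 85.1, 67.0 and 265 CPM, 3.11-fold and 3.95-fold lower. Hp, which encodes the haemoglobin-binding protein haptoglobin, had 375, 357 and 566 CPM with ratios of 1.51-fold lower (0.993 to 2.42), not called, after GW5074 and 1.58-fold lower (1.12 to 2.33) in the knockout. Pglyrp1, a peptidoglycan-binding granule protein, had 392, 514 and 385 CPM and was not called in either. Of the genes tied to marrow maturity and ageing, Chil3 again included, 3 of 5 were lower and 0 higher after GW5074 and 4 of 6 lower and 1 higher in the knockout. Cd47, the signal that protects a cell from being engulfed, had 579, 458 and 953 CPM, 1.65-fold and 2.08-fold lower. Of further neutrophil-typical genes outside the rule, 19 could be compared after GW5074, with 3 higher and 5 lower, and 24 in the knockout, with 10 higher and 4 lower.

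Among the stefins and whey acidic protein genes Stfa1, Cstdc4 and Wfdc21 were lower in both and Wfdc17 was higher in the knockout. Stfa1 had 0 UMIs in both small groups and 221 CPM in wild-type DMSO. With the 0 set at a floor of 3 UMIs over the library's neutrophils, it was at least 4.32-fold lower after GW5074 and 6.59-fold lower in the knockout. These bounds take UMIs as independent, but Stfa1 was found in only 6.66% of wild-type DMSO neutrophils. A floor of 3 cells allows 4.05% of GW5074 and 2.4% of knockout neutrophils, so the gap by cells can be smaller. The same limit holds for the other bounds at this floor. Cstdc4 had 306, 0 and 658 CPM and was called lower in both. However, 13 of its 18 UMIs after GW5074 came from 1 cell of 3 with the message. In the knockout it was at least 19.6-fold lower by the floor of UMIs, and 18.9% of wild-type DMSO neutrophils held it. Wfdc21, a whey acidic protein-domain gene of neutrophils, had 306, 156 and 800 CPM, 2.61-fold (1.65 to 4.42) and 5.12-fold (3.04 to 9.38) lower. Wfdc17 had 409, 681 and 318 CPM, 1.29-fold higher (0.819 to 1.93), not called, after GW5074 and 2.14-fold higher (1.62 to 2.79) in the knockout. Other S100 genes did not move as a group. S100a6 had 1907, 2077 and 3083 CPM and was called lower after GW5074, S100a11 had 1328, 2602 and 1219 CPM and was 2.13-fold higher in the knockout, and S100a4 had 494, 78.2 and 477 CPM and was 6.1-fold lower (2.95 to 15.2) in the knockout, a call lost at a calprotectin threshold of 3% (log2 ratio -1.23). Over the whole list of alarmins and stefins, which includes Stfa2l1 of the rule, 4 of 8 genes were lower and 0 higher after GW5074 and 3 of 7 lower and 2 higher in the knockout. Of all compared genes 9.3% were lower and 11.2% higher after GW5074, and 13.3% lower and 19.1% higher in the knockout.

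**Figure D3:**
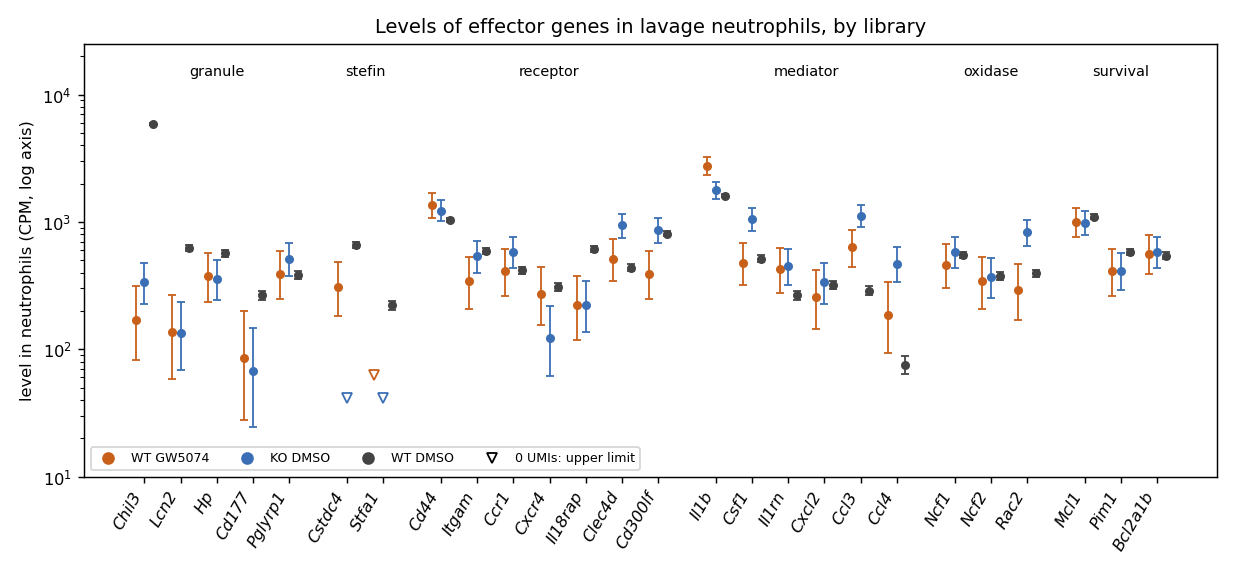
Neutrophil levels in CPM on a log axis for genes of 6 roles in GW5074, knockout and wild-type DMSO neutrophils, with exact 95% Poisson intervals and an open triangle at the upper limit where a gene had 0 UMIs. Chil3, Lcn2 and the stefins lie highest in wild-type DMSO (Chil3 170, 335 and 5916 CPM), Ccl3 and Ccl4 lie lowest there (Ccl3 630, 1117 and 288 CPM), and Ncf1, Mcl1 and Bcl2a1b overlap.

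A further set of genes high in wild-type DMSO neutrophils was at or near 0 in the others. Ptpn22, a phosphatase that restrains immune receptor signals, had 0, 2 and 1144 UMIs in GW5074, knockout and wild-type DMSO, which is 0, 22.3 and 513 CPM. It was at least 10.1-fold lower after GW5074, and in the knockout the ratio was 0.0435 (0.00526 to 0.158). Bcl2l15, which lies 5176 bases upstream of Ptpn22 on the same strand of chromosome 3, had 1, 0 and 903 UMIs, with a ratio of 0.0420 (0.00106 to 0.235) after GW5074 and a level at least 12.1-fold lower in the knockout. In thinned wild-type DMSO neutrophils Ptpn22 was found in 34.8% of cells with a Bcl2l15 UMI, against 19.6% of those without. The prion protein gene Prnp had 1, 0 and 469 UMIs, and its ratio was 0.0809 after GW5074 and its level at least 6.28-fold lower in the knockout. In the other cells Ptpn22 stood at 14.9, 17.1 and 56.0 CPM and Prnp at 13.3, 14.1 and 31.0 CPM, lowest outside wild-type DMSO as well. The S100a8 levels of the other cells, given above, had the same order, and the source of this RNA was not tested. Id2, an inhibitor of basic helix-loop-helix factors, had 204, 301 and 1626 CPM, 7.96-fold and 5.39-fold lower. Klhl6 had 187, 234 and 1428 CPM, 7.62-fold lower (4.26 to 15.3) and 6.09-fold lower (3.98 to 9.85), against 106, 166 and 199 CPM in T cell-gated cells and 56.1, 63.9 and 154 CPM in all other cells. Among neutrophils with no Chil3 UMI alone, 68, 104 and 315 cells, Klhl6 stood at 214 CPM (107 to 383), 207 CPM (113 to 347) and 823 CPM (712 to 947). Its gap was thus also present among cells without Chil3, and the intervals of Id2, Ptpn22 and Bcl2l15 were apart there too. Those of Prnp, Lcn2 and Cd177 overlapped wild-type DMSO in both comparisons. In these cells Lcn2 stood at 117 (42.8 to 254), 118 (51.0 to 233) and 293 CPM (228 to 370). Cd177 stood at 38.9 (4.71 to 140), 59.1 (16.1 to 151) and 180 CPM (130 to 242).

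Fkbp5, Klf9, Tsc22d3, Mt1 and Dusp1 were the glucocorticoid-induced genes outside the rule that were called lower in both comparisons. Of 16 measured, 6 could be compared in each comparison, 6 were lower and 0 higher in each, and the median log2 ratio was -1.86 after GW5074 and -1.52 in the knockout, with genes at 0 UMIs set at their bound. The 6 include Il1r2, which chose the cells, and Fkbp5, Klf9 and Mt1, and after GW5074 also Tsc22d3, passed the minimum only through wild-type DMSO, so the count does not support a direction for the list. Fkbp5, a co-chaperone of the glucocorticoid receptor, had 85.1, 100 and 426 CPM in GW5074, knockout and wild-type DMSO, 5.01-fold lower (2.14 to 15.5) and 4.24-fold lower (2.22 to 9.30). Among neutrophils with no Chil3 UMI it stood at 77.8 (21.2 to 199), 118 (51.0 to 233) and 234 CPM (177 to 304), with overlapping intervals. Klf9, a transcription factor, had 0, 2 and 671 UMIs, at least 5.90-fold lower after GW5074 and with a ratio of 0.0742 in the knockout. Tsc22d3, which encodes the leucine zipper protein GILZ, had 170, 324 and 627 CPM, 3.68-fold and 1.94-fold lower. The metallothionein gene Mt1 had 119, 89.3 and 428 CPM and the MAP kinase phosphatase gene Dusp1 340, 447 and 742 CPM. The 15 genes of the list outside the rule summed to 936 CPM (705 to 1219), 1195 CPM (979 to 1444) and 2970 CPM (2899 to 3042) in neutrophils. In the other cells the same genes summed to 1258, 1541 and 1697 CPM, with 541, 729 and 674 CPM of it from Mt1 and 368, 346 and 280 CPM from Sgk1. Several members were lower in the other cells too. There Fkbp5 stood at 46.2, 89.7 and 133 CPM, Dusp1 at 54.3, 72.3 and 148 CPM, Klf9 at 26.4, 27.8 and 59.2 CPM and Ddit4 at 2.20, 3.63 and 27.9 CPM. For these genes the lower levels were also seen outside the neutrophils. The promoter stretches of Fkbp5, Klf9, Klhl6 and Tsc22d3 held no match to the glucocorticoid receptor motif (GNACA and TGTNC with 3 bases between, both strands), which 0.475% of all promoter stretches held, and distal elements were not analysed here. No hormone was measured.

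**Figure D4:**
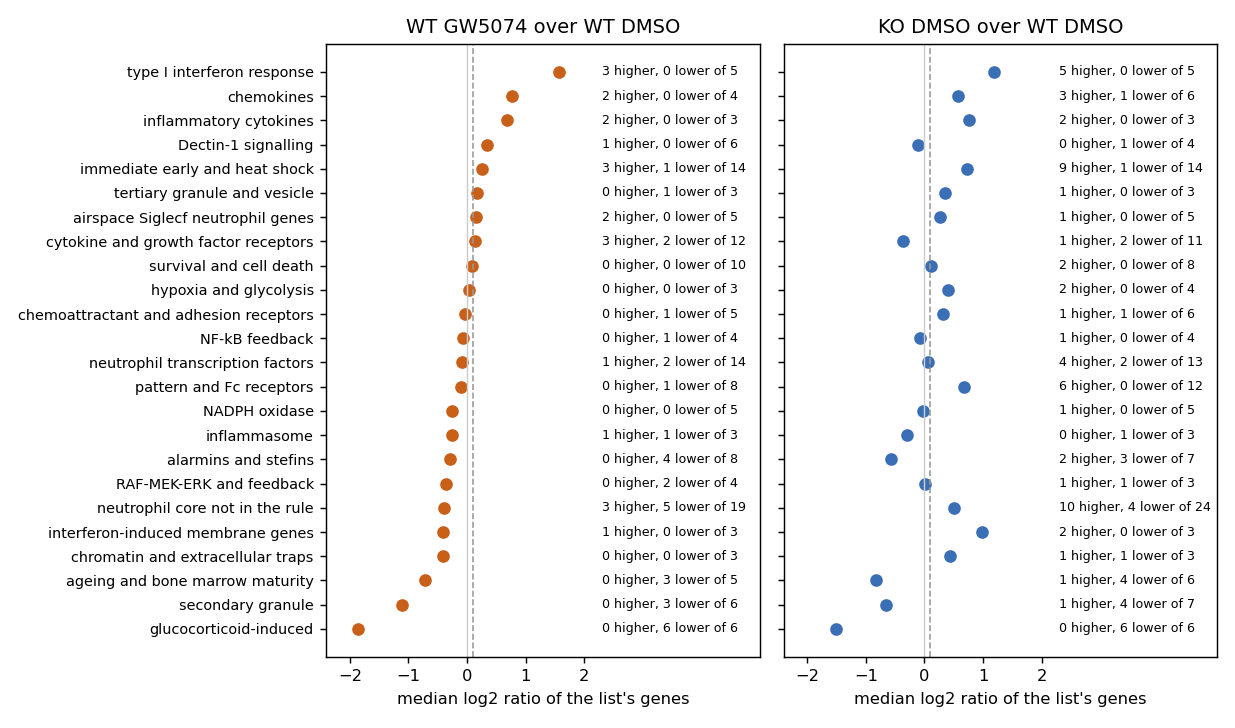
Median log2 ratio of each gene list in neutrophils, GW5074 over wild-type DMSO and knockout over wild-type DMSO, for lists with at least 3 compared genes in both, with the numbers of genes compared, higher and lower beside each point and a dashed line at the median of all compared genes (0.10 and 0.09). Glucocorticoid-induced genes (-1.86 and -1.52) lie lowest and type I interferon genes (1.58 and 1.18) highest of these lists in both, from 5 or 6 compared genes each.

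Ccl3 and Il1rn were higher in both comparisons, Ccl4 and Csf1 in the knockout and Il1b after GW5074, while Ccl5 was higher after GW5074 and lower in the knockout. The 4 chemokine genes compared after GW5074 included 2 higher and 0 lower, and the 6 in the knockout 3 higher and 1 lower. Over all compared genes 11.2% were higher after GW5074 and 19.1% in the knockout, and 9.3% and 13.3% were lower. Ccl3, which encodes the chemokine MIP-1alpha, had 630, 1117 and 288 CPM in GW5074, knockout and wild-type DMSO, 2.19-fold (1.53 to 3.05) and 3.88-fold (3.11 to 4.79) higher. Ccl4, its close relative, had 187, 469 and 75.4 CPM, and was 6.22-fold higher (4.33 to 8.77) in the knockout, from 42 UMIs in 21 cells. Among neutrophils with no Chil3 UMI alone, Ccl4 stood at 214, 502 (348 to 701) and 443 CPM (363 to 536) in the same order. The Ccl4 intervals of the knockout and wild-type DMSO thus overlapped there. Ccl3 stood at 700, 1152 (910 to 1437) and 577 CPM (485 to 681) in the same cells. At a calprotectin threshold of 3% the log2 ratios in the knockout were 1.36 for Ccl3 and 1.93 for Ccl4, against 1.95 and 2.64 at 1.5%. Ccl5 had 579, 89.3 and 277 CPM, 2.09-fold higher after GW5074 and 3.10-fold lower in the knockout. Cxcl2, a ligand of Cxcr2, had 255, 335 and 321 CPM and was not called in either. Il1b had 2758, 1775 and 1612 CPM and was 1.71-fold higher (1.45 to 2.0) after GW5074. It was found in 64.9%, 57.6% and 56.2% of cells, and in 56.8%, 50.4% and 45.2% after thinning. T cell-gated cells had 162, 66.2 and 156 CPM of Il1b, far under the neutrophils. Il1rn, the interleukin-1 receptor antagonist, had 426, 447 and 264 CPM and was called higher in both, and Csf1 had 477, 1050 and 515 CPM and was 2.04-fold higher in the knockout.

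Slfn4 was the type I interferon response gene called higher in both comparisons. Of 32 measured, 5 could be compared in each comparison. After GW5074 3 were higher and 0 lower, with a median log2 ratio of 1.58, and in the knockout 5 were higher and 0 lower, with a median of 1.18. Most of these genes entered the comparison only through the group where they were higher, so a count over them is not support. Isg15, a ubiquitin-like modifier, had 204, 100 and 33.2 CPM and was 6.15-fold higher (3.04 to 11.4) after GW5074, from 12 UMIs in 5 cells. Slfn4, a schlafen gene, had 306, 402 and 103 CPM, 2.98-fold and 3.91-fold higher. Bst2, the tetherin gene, had 272, 145 and 71.3 CPM and was 3.82-fold higher after GW5074, a call lost over the neutrophils without macrophage UMIs (log2 ratio 1.40). Oasl2, a relative of the oligoadenylate synthetases, had 119, 335 and 85.3 CPM and was 3.93-fold higher in the knockout. Among neutrophils with no Chil3 UMI alone, Slfn4 stood at 311, 502 (348 to 701) and 297 CPM (232 to 374). Its gap after GW5074 was not seen there, and the knockout and wild-type DMSO intervals overlapped. In the same cells Isg15 stood at 233 (121 to 408), 118 and 87.8 CPM (54.3 to 134), so the GW5074 and wild-type DMSO intervals overlapped. Oasl2 stood at 117, 384 (251 to 562) and 142 CPM (98.4 to 199). Ifi27l2a, outside the list, had 715, 279 and 122 CPM, 5.88-fold (4.14 to 8.16) and 2.3-fold higher, against 465, 444 and 276 CPM in the other cells. Among neutrophils with no Chil3 UMI, Ifi27l2a stood at 583 (394 to 833), 281 (169 to 438) and 221 CPM (166 to 290). There the knockout interval overlapped that of wild-type DMSO.

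Among receptor genes some were higher and others lower in each comparison. Of the cytokine and growth factor receptors, 3 of 12 were higher and 2 lower after GW5074 and 1 of 11 higher and 2 lower in the knockout. Over all compared genes 11.2% were higher and 9.3% lower after GW5074, and 19.1% higher and 13.3% lower in the knockout, so these counts set the list apart in neither. Tgfbr1, a receptor of TGF-beta, had 426, 514 and 214 CPM, 1.99-fold (1.27 to 2.97) and 2.4-fold (1.73 to 3.25) higher, and Tnfrsf1b, a receptor of TNF, had 443, 145 and 227 CPM and was 1.95-fold higher (1.26 to 2.90) after GW5074. After GW5074 Itgam, the CD11b gene used for the sort, had 340 CPM, against 592 CPM in wild-type DMSO (1.74-fold lower), the complement receptor gene C5ar1 221 against 465 CPM (2.1-fold lower), the sialic acid-binding receptor gene Cd33 170 against 490 CPM (2.88-fold lower) and Cd300lf, an inhibitory lipid receptor, 392 against 806 CPM (2.06-fold lower). In the knockout these 4 genes had 536, 447, 380 and 860 CPM and none was called. Of the pattern and Fc receptor list, 12 genes could be compared in the knockout, with 6 higher and 0 lower and a median log2 ratio of 0.67, and 8 after GW5074, with 0 higher and 1 lower. Only 8 genes of the list had 200 CPM in wild-type DMSO, so some of the 12 entered through the knockout alone, where they were higher. The count and median therefore support no direction, and 19.1% of all compared genes were higher in the knockout. Clec4d, a C-type lectin that pairs with Fc receptor gamma, had 511, 938 and 438 CPM and was 2.14-fold higher (1.69 to 2.68) in the knockout. Fcer1g, the gamma chain itself, had 1277, 2568 and 1514 CPM (1.70-fold higher in the knockout), and Fcgr3 had 375, 681 and 364 CPM (1.87-fold higher). Il18rap, a chain of the interleukin-18 receptor, had 221, 223 and 608 CPM, 2.75-fold and 2.72-fold lower. Cxcr4, which holds neutrophils in the marrow, had 272, 123 and 310 CPM and was 2.52-fold lower in the knockout, and Cd44 and the chemokine receptor gene Ccr1 were not called in either.

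Iron storage genes were highest in the knockout, in the neutrophils and in the other cells. Fth1 had 7133, 18391 and 7886 CPM in GW5074, knockout and wild-type DMSO neutrophils, 2.33-fold higher (2.22 to 2.45) in the knockout, and the light chain Ftl1 had 2196, 4567 and 1933 CPM, 2.36-fold higher. In the other cells of the libraries Fth1 stood at 16345, 19758 and 11509 CPM and Ftl1 at 9973, 13642.5 and 7901 CPM. Olr1, a receptor for oxidised lipoprotein, had 85.1, 748 and 93.8 CPM, 7.98-fold higher (5.97 to 10.6) in the knockout, with 27 of its 67 UMIs in 1 of 20 cells. Its log2 ratio was 3.0 over all and 2.33 over the neutrophils without macrophage UMIs. The other cells held 225, 395 and 160 CPM of Olr1, also highest in the knockout. Slc7a11, the cystine importer, was also higher in the knockout (201 against 55.2 CPM), a call lost over the neutrophils without macrophage UMIs (log2 ratio 1.22). Msrb1, a methionine sulfoxide reductase, had 409, 1239 and 567 CPM. Gsr, the glutathione reductase gene, had 630, 514 and 1233 CPM, 1.96-fold and 2.40-fold lower.

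**Figure D5:**
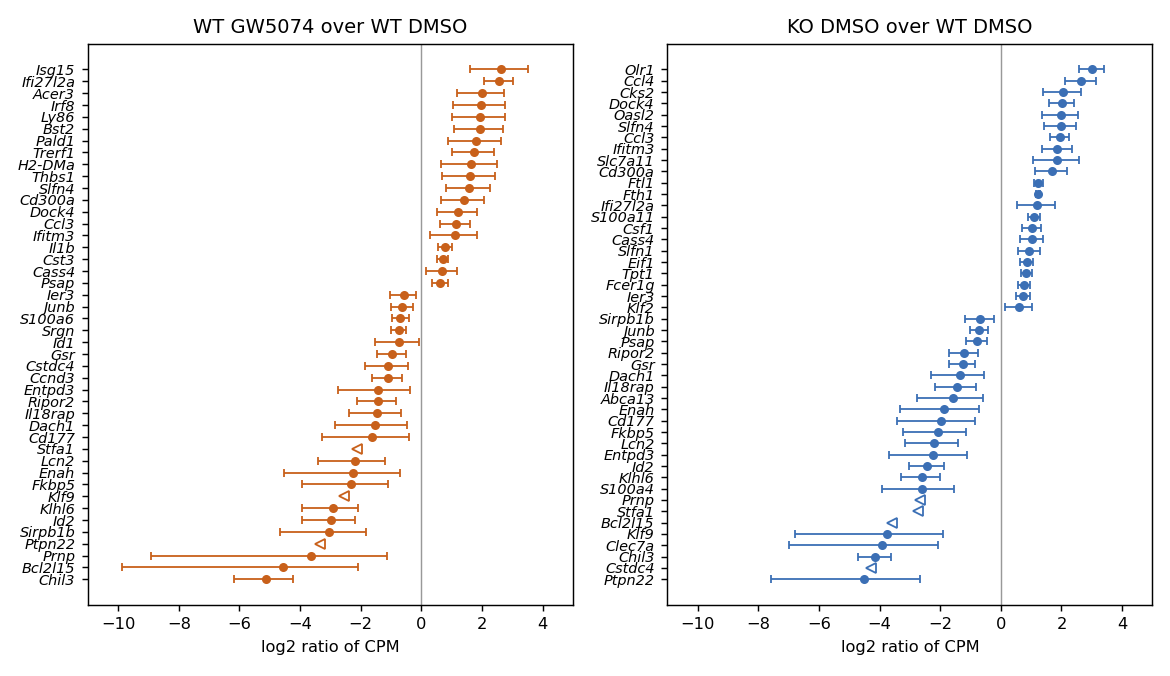
Log2 ratios with exact 95% intervals for named genes past the 1.5-fold rule in neutrophils, GW5074 over wild-type DMSO and knockout over wild-type DMSO, with open triangles at the bound for genes with 0 UMIs. Chil3 (-5.12 and -4.14) lies far below 0 in both, and Olr1 (3.0 in the knockout) and Isg15 (2.62 after GW5074) lie highest.

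Cd74, H2-Ab1 and H2-Eb1, genes of antigen presentation in the dendritic cell marker list, were called higher in both comparisons. Cd74 had 1753, 2769 and 1087 CPM, 1.61-fold higher (1.31 to 1.97) after GW5074 and 2.55-fold higher (2.23 to 2.91) in the knockout, and was found in 40.5%, 27.2% and 22.0% of cells. In the knockout, 75 of its 248 UMIs came from 1 cell. T cell-gated cells held 3117, 2000 and 2152 CPM of Cd74, so the neutrophil level did not stand clear of other sources of the RNA. H2-Ab1 had 834, 849 and 447 CPM and H2-Eb1 732, 916 and 452 CPM. H2-Aa had 698, 1083 and 539 CPM, 1.3-fold higher (0.925 to 1.77), not called, after GW5074 and 2.01-fold higher (1.62 to 2.47) in the knockout. In wild-type DMSO H2-Aa was found in 24.1% of thinned neutrophils with a Cd74 UMI, against 5.48% of those without. Spp1, an osteopontin gene high in macrophages, had 936, 815 and 515 CPM and was also called higher in both, while Apoe had 681, 424 and 658 CPM.

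The NADPH oxidase and survival genes are given beside the background, in which 20.5% of all compared genes were called in either direction after GW5074 and 32.4% in the knockout. Of the NADPH oxidase genes, 5 could be compared in each comparison. None was called after GW5074 and 1 in the knockout, Rac2, a GTPase of the oxidase complex, which had 289, 826 and 394 CPM and was 2.1-fold higher (1.63 to 2.66). The cytosolic subunit gene Ncf1 had 460, 581 and 547 CPM and Cyba, the membrane subunit, 953, 1027 and 1290 CPM. Of the survival and cell death genes, 0 of 10 were called after GW5074 and 2 of 8 in the knockout, both higher. Mcl1, the BCL-2 relative on which neutrophil survival depends, had 1004, 983 and 1102 CPM, with ratios of 1.10-fold lower (0.847 to 1.45) after GW5074 and 1.12-fold lower (0.906 to 1.40) in the knockout. These intervals leave room for moderate differences in either direction.

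Along the Dectin-1 pathway, 6 genes could be compared after GW5074 and 4 in the knockout. Beside Clec7a itself, 0 genes were called in the knockout. Syk had 596, 648 and 573 CPM and Prkcd 409, 257 and 331 CPM, called in neither. Vav1, an exchange factor downstream of Syk, had 340, 100 and 179 CPM and was 1.90-fold higher (1.15 to 2.98) after GW5074. In the RAF-MEK-ERK list, 4 genes could be compared after GW5074, with 0 higher and 2 lower, and 3 in the knockout, with 1 higher and 1 lower. Dusp1, a feedback phosphatase, was lower in both. Ier3, an immediate early gene, had 800, 2010 and 1203 CPM, 1.5-fold lower (1.13 to 2.05) after GW5074 and 1.67-fold higher (1.43 to 1.94) in the knockout. Egr1, a target of ERK, had 1038, 1128 and 1125 CPM, a ratio of 1.08-fold lower (0.840 to 1.42) after GW5074 and 1.0 (0.813 to 1.22) in the knockout.

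Of the immediate early and heat shock genes, 14 could be compared in each comparison, with 3 higher and 1 lower after GW5074 and 9 higher and 1 lower in the knockout. Over all compared genes 11.2% were higher after GW5074 and 19.1% in the knockout. Fos had 800, 1139 and 640 CPM and Jun 443, 938 and 574 CPM, 1.78-fold and 1.63-fold higher in the knockout. Junb ran the other way at 1141, 1072 and 1761 CPM, 1.54-fold lower after GW5074 and 1.64-fold lower in the knockout. Among transcription factors of neutrophils, 14 were compared after GW5074, with 1 higher and 2 lower, and 13 in the knockout, with 4 higher and 2 lower. Runx1, a regulator of granulocyte development, had 477, 983 and 568 CPM (1.73-fold higher in the knockout), while Cebpb had 579, 514 and 501 CPM and was not called. The inflammasome sensor Nlrp3 had 409, 179 and 147 CPM and was 2.78-fold higher (1.75 to 4.20) after GW5074. Its adaptor gene Pycard had 85.1, 55.8 and 216 CPM, 2.54-fold and 3.87-fold lower. Siglecf, a lectin found on neutrophils that have stayed in injured airspace and on alveolar macrophages, had 289, 290 and 141 CPM and was 2.05-fold higher in each (1.18 to 3.33 after GW5074 and 1.32 to 3.07 in the knockout).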

How the data were processed

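The series holds 3 single-cell libraries of lavage cells, 1 per group. The deposited files are unnormalized UMI counts per gene and barcode over 32286 genes, made by the authors with Cell Ranger 2.1.1 on mm10, per the submitters' processing notes. The labels name 2 droplet systems, so the one used is not settled here. Libraries held 17809, 11678 and 13504 barcodes and 45462817, 34859676 and 39180331 UMIs (WT GW5074, KO DMSO, WT DMSO). Barcodes under 200 genes or above 20% mitochondrial UMIs were dropped (17, 36 and 50 of them), and neutrophils were chosen by the rule given above. The neutrophils held 58740, 89555 and 2228673 UMIs, so intervals are wide in the first 2 libraries.

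Counts were summed over neutrophils per library and given as CPM with exact Poisson intervals. Shares have Clopper-Pearson intervals and ratios conditional binomial ones (95%). No test between groups was possible with 1 library each, so edgeR was not used. Genes needed 200 CPM in either library and 20 UMIs over both. The calls were tested on simulated counts with known folds, drawn independently for each gene. The simulation follows the counting model of the intervals, so it cannot check the effect of UMIs clustered in few cells. Cells were thinned to 500 UMIs where shares of cells were compared, and no neutrophil was left out by it. T cell-gated cells held at least 3 UMIs over 6 T cell genes and under 0.5% Lyz2, a ceiling added after seeing the data. No doublet caller was run. Sequences came from RefSeq GRCm38.p6 tables and positions from the GRCm38 annotation.

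Members and gene lists were chosen with earlier results of these data known. Named genes were up to 6 per list by wild-type DMSO level, the 30 highest in level and the 30 highest over other cells, the 15 most variable, the 10 most changed each way, and Clec7a. Ly6g, Camp, Ngp, Ltf, Msrb1, Ddit4, Sgk1, Tgfbr1, Tnfrsf1b and the primary granule genes at 0 were named after their values were seen. Python 3.11.15, numpy 2.4.6, scipy 1.17.1, pandas 2.3.3 and matplotlib 3.10.9 were used.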

Additional observations from a re-analysis of the deposited data

How the results depend on the processing

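No paired analysis was possible because each group has 1 library. The share ratio kept its direction under all 9 alternatives in each comparison. The counts of called genes moved with the minimum level. With at least 500 CPM, 36 genes were higher and 43 lower after GW5074, and 89 higher and 51 lower in the knockout. With no minimum in CPM, 318 were higher and 178 lower after GW5074, and 409 higher and 372 lower in the knockout. These settings change how many genes are compared. With a calprotectin threshold of 1%, 166 genes were lower after GW5074; the cause was not tested. Over the neutrophils without macrophage UMIs the calls of Acer3, Bst2, Ly86 and Trerf1 (GW5074) and Slc7a11 (knockout) were lost. With a calprotectin threshold of 3% those of H2-DMa and Thbs1 (GW5074) and S100a4 (knockout) were lost. With at least 2 UMIs over the 7 marker genes H2-DMa was lost, and with Lyz2 under 0.2% Ly86 was lost. Of 468 recomputed ratios of named genes, 458 kept their call and direction and 0 reversed. Depth limits genes under 200 CPM in the 74 and 125 cells of the small groups.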
